A study of Homo sapiens with 6 samples.

Results

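The transcripts described here are those of 10 growth factor receptor tyrosine kinases outside the insulin family, EGFR, ERBB2, ERBB3, MET, AXL, FGFR1, PDGFRA, PDGFRB, EPHA2 and DDR2. They were found on the arrays by gene symbol, which gave 21 probes of 48803, and the 10 genes are among 18852 with a named probe. All 6 arrays of the study carried RNA of ES-2, an established line labelled as ovarian clear cell carcinoma, taken 48 h after transfection. The cells of 3 arrays had been given 50 nM of a hairpin inhibitor against miR-182, a microRNA, per the labels' protocols. Those of the other 3 had been given a negative control inhibitor, modelled on a C. elegans sequence with minimal identity to human microRNAs. The study's design text instead calls the agents mimics while describing a knockdown of miR-182. The labels' wording is kept here, and the direction of the treatment rests on it, since no probe was named for miR-182. Its knockdown was thus not measured on these arrays. The arrays of each group are labelled as biological replicates, and whether these were separate cultures on separate days is not given, so the p-values measure the spread between these samples. All results come from 1 cell line. The arrays measure transcripts in bulk RNA, in which fewer cells of a kind and less RNA per cell cannot be told apart, and they measure neither receptor protein nor its phosphorylation.

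Receptor tyrosine kinases are cell surface proteins that pair when their ligand binds and phosphorylate one another on tyrosines, to which adaptor proteins attach and pass the signal to RAS and the ERK kinases, to PI3 kinase and AKT, and to STAT factors. EGFR, ERBB2 and ERBB3 form one family of dimerising receptors, MET binds hepatocyte growth factor, AXL binds GAS6, and the FGF and PDGF receptors bind the growth factors they are named for. EPHA2 binds ephrins on neighbouring cells, and DDR2 is a receptor of fibrillar collagen. In carcinomas, EGFR, ERBB2 and MET are known as drug targets, and AXL and the PDGF receptors are more often linked with mesenchymal cells.

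The inhibitor is directed at miR-182, a microRNA lying at chr7:129770447-129770470 for its 5p arm and chr7:129770406-129770426 for its 3p arm (GRCh38.p14, minus strand). Both mature RNAs are shown, since the labels do not name the arm. The capitals mark the seed, bases 2 to 8 from the 5′ end, through which a microRNA pairs with its target transcripts. The sequences are those of RefSeq, written 5′ to 3′, and differ in their seeds.
hsa-miR-182-5p: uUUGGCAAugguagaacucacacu
hsa-miR-182-3p: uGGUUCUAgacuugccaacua
No 3′ UTR sequence of the receptors was used here, so seed sites in them were not counted.

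Each array gave 20365 to 22473 probes (41.7% to 46.0%) called detected (p under 0.05 against background), with a median of 40 to 41 beads per probe. Log2 values of the 12087 genes tested correlated at 0.996 to 0.998 between any pair of arrays, across genes, which are not independent replicates. On the leading principal component, with 29.4% of the variance, control replicate 3 lay farthest out, at 12.02. Control replicates 1 and 2 lay at −0.68 and 4.09, and inhibitor replicates 1, 2 and 3 at −7.81, −1.10 and −6.51. The groups did not overlap there, though inhibitor replicate 2 and control replicate 1 lay close together. Of 5 epithelial markers, the keratins KRT8 and KRT18 were detected on all 6 arrays, EPCAM on 2, and KRT19 and the E-cadherin gene CDH1 on 0. Of 3 clear cell markers with a named probe, ANXA4 was detected on all 6, PAX8 on 3 and NAPSA on 0, and all 3 mesenchymal markers, VIM, CDH2 and FN1, were detected on all 6. Markers of other cell types were mixed within each list. For endothelium PECAM1, CDH5 and TIE1 were detected on all 6 arrays and VWF on 0, and for fibroblasts COL1A1 on all 6, DCN on 3, and COL1A2 and LUM on 0. White blood cell markers gave CD14 on all 6, LYZ on 4, CD3E on 1 and PTPRC on 0, and mesothelial ones CALB2 and UPK3B on all 6, LRRN4 on 1 and MSLN on 0.

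All 10 receptors had at least 1 probe detected on 3 or more arrays, the filter for testing, but by very different margins. The lowest signal called detected ran from 45.7 to 51.7 intensity units over the arrays, and each probe was read against it on the same array. The main probe, the brightest detected one of a gene, exceeded this floor by more than 2-fold on every array for 6 receptors, AXL, EGFR, DDR2, EPHA2, PDGFRA and MET. For the other 4, ERBB2, ERBB3, FGFR1 and PDGFRB, it stayed under 2-fold on every array. Of all 21 probes, 14 were detected on 6 arrays, 3 on 3 to 5 and 4 on 0. Because the efficiency of each probe is unknown, these margins say how securely a transcript was seen and do not rank the receptors by abundance.

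**Figure D1:**
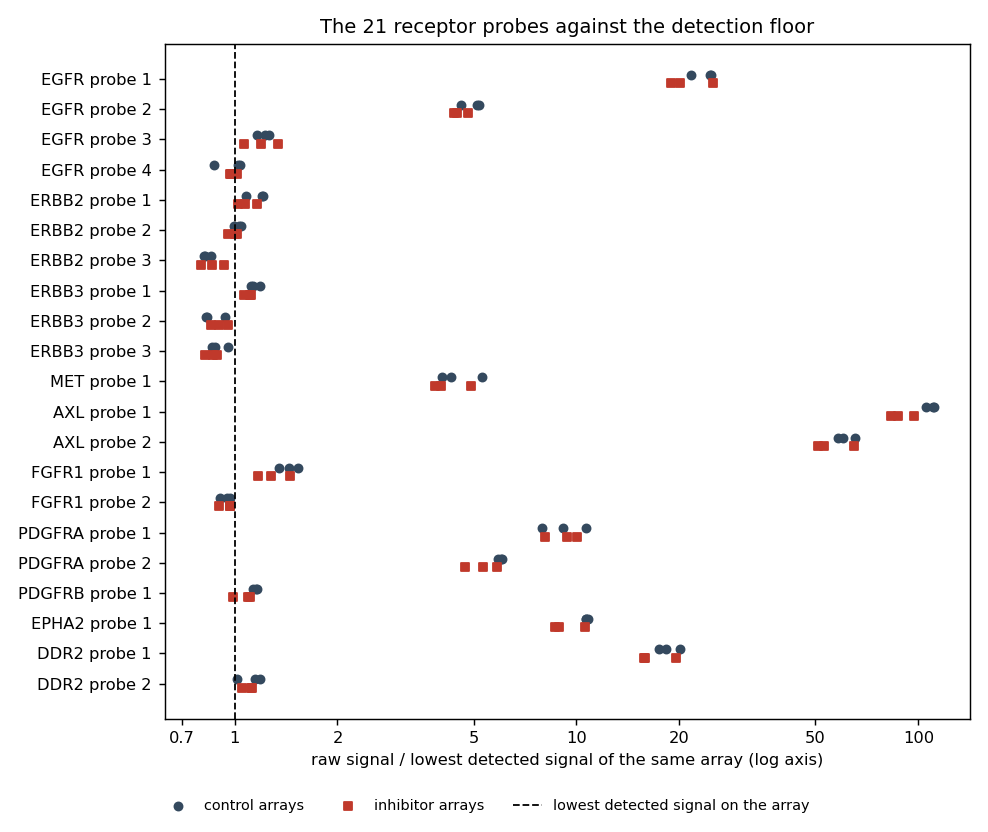
The raw signal of all 21 receptor probes on the 6 arrays, divided by the lowest detected signal of the same array (horizontal log axis, dashed line at 1). Points are arrays, circles control and squares inhibitor, and probes of a gene are numbered from the brightest. Both AXL probes and the leading probes of EGFR, DDR2, EPHA2, PDGFRA and MET lie well to the right, and every probe of ERBB2, ERBB3, FGFR1 and PDGFRB lies near the line.

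No receptor differed past the test between the arrays labelled miR-182 inhibitor and the control arrays. With limma and Benjamini-Hochberg adjustment over all genes tested, 0 of 10 receptors and 0 of 12087 genes passed an adjusted p of 0.05 (0% of all genes tested), and the lowest adjusted p among the receptors was 0.651, for AXL. At an unadjusted p under 0.05 there were 0 receptors, against 925 genes or 7.65% of all tested, 4.15% lower and 3.5% higher with the inhibitor. AXL lay just above this cutoff, at an unadjusted p of 0.0503 in limma. The log2 difference, inhibitor minus control, was below 0 for 9 receptors and above 0 for PDGFRA alone, against 50% of all genes below 0. MET and DDR2, counted among the 9, lay at −0.0023 ± 0.10 and −0.0017 ± 0.07 (SE). Both turned above 0 with some single arrays left out. The second probes of AXL and PDGFRA lay on the other side of 0 from their main probes. The median over the receptors was −0.083, where the median of all genes tested was 1.49e-05 and the median absolute difference 0.065. The 2 receptors whose groups did not overlap, AXL and EPHA2, were both lower with the inhibitor, while groups did not overlap for 13% of all genes, 6.23% lower and 6.8% higher with the inhibitor. The 95% intervals of the 10 receptors reached from 0.745-fold to 1.28-fold in all, on the scale of normalized values with an offset of 16. With an offset of 50 the difference was −0.10 for FGFR1 and −0.069 for ERBB2, in place of −0.19 and −0.15. That of AXL stayed at −0.14. For ERBB2, ERBB3, FGFR1 and PDGFRB, all near the floor, the intervals therefore do not bound the change of the transcript itself.

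The 4 receptors under 2-fold of the floor, a margin chosen after the values were seen, had a median difference of −0.16, and the 6 above it one of −0.014. The receptors farthest from 0 were FGFR1 (−0.19), PDGFRB (−0.18) and ERBB2 (−0.15), all under the margin. AXL, with the widest margin, lay farther from 0 than ERBB3, as PDGFRA and EPHA2 did. Of the 6 brighter receptors 5 lay below 0, MET and DDR2 at only −0.0023 and −0.0017. Among all genes tested, those under 2-fold of the floor on every array (3404 genes) had a median of −0.0049 with 51.6% below 0, and those above it on every array (8013 genes) a median of 0.0028 with 48.8% below 0. Genes near the floor also had the wider error, with a median SE of 0.094 log2 units against 0.073. The part of low signal in the receptor differences was not tested.

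**Figure D2:**
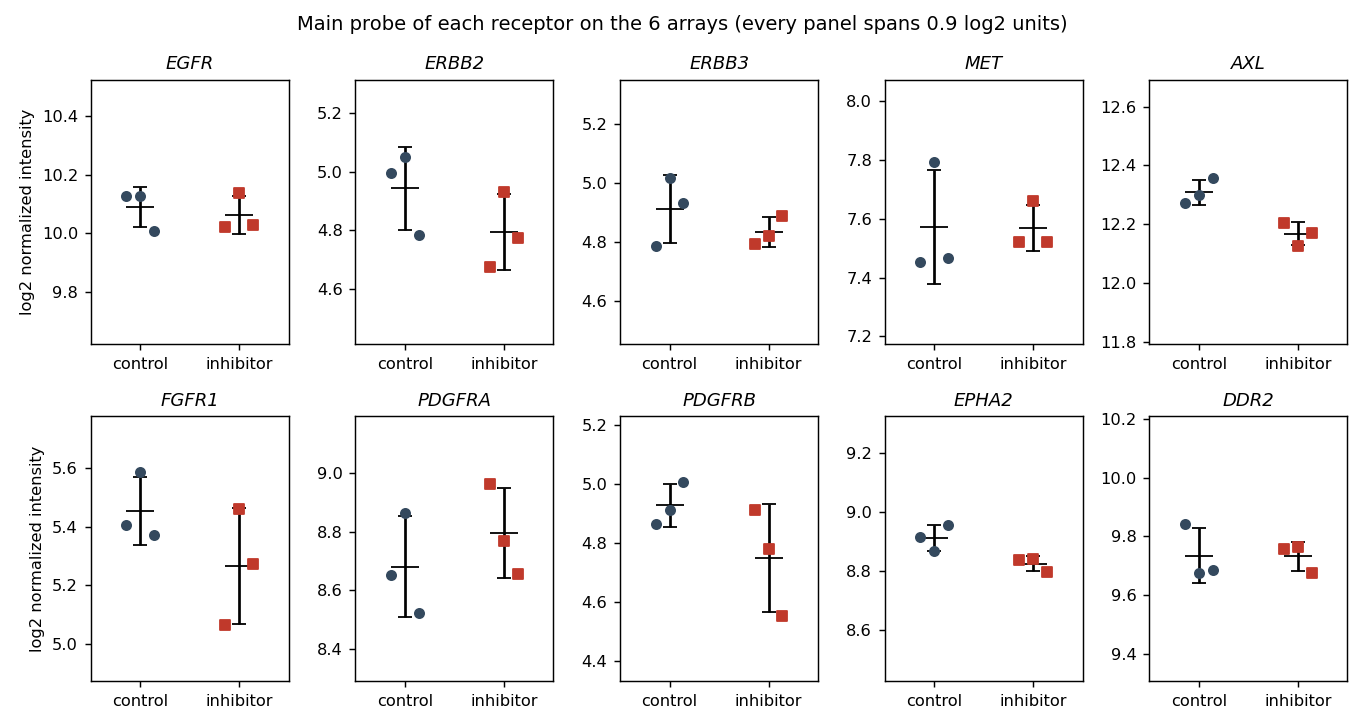
Log2 normalized intensity of the main probe of each receptor on each array, control (circles) and inhibitor (squares), with the mean and SD of 3 arrays in black. Each panel has its own vertical range of the same length, so spreads can be compared between panels and levels cannot. The groups lie apart for AXL and EPHA2 and overlap for the other 8.

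AXL, a receptor of the TAM family that binds GAS6, had the smallest p of the 10. Its main probe read, in log2 units, 12.20, 12.13 and 12.17 with the inhibitor and 12.27, 12.30 and 12.36 in the control. The lowest control array lay above the highest inhibitor array by less than 0.1 log2 units, while the SD within groups was 0.041. The difference was −0.14 ± 0.06 (SE, n = 3 per group), or 0.907-fold, with a 95% interval of −0.28 to 0.00025 and an adjusted p of 0.651 in limma. A second probe annotated to the same AXL transcript, also more than 50-fold above the floor on every array, read 11.54, 11.54 and 11.40 with the inhibitor and 11.46, 11.36 and 11.59 in the control. These groups overlapped, and the difference was 0.020 ± 0.08, so the probes of AXL disagreed in direction. The bead-to-bead standard error corresponded to 0.051 log2 units for each AXL probe, which the SD within groups of the main probe did not exceed and that of the other probe, 0.0995, did. Without normalization between arrays the main probe gave −0.19, and after median scaling −0.21. With 1 array left out it ran from −0.16 to −0.12.

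GAS6, the ligand of AXL, was detected on all 6 arrays, as was PROS1, protein S, the other ligand of the TAM family. Of the remaining TAM receptors, TYRO3 and MERTK were detected on all 6 arrays too. GAS6 differed by −0.13 ± 0.07 and its 2 other detected probes by −0.10 each, with groups of the main probe lying apart, PROS1 by −0.024 ± 0.06, TYRO3 by 0.067 ± 0.07 and MERTK by 0.075 ± 0.08. A further MERTK probe gave −0.15 ± 0.11. These 4 genes were picked here after their values were seen, and none passed the test. The 3 genes whose values over the 6 arrays were most like those of AXL were GNE, an enzyme of sialic acid synthesis (Pearson r = 0.990), GPR39, a zinc-sensing receptor (0.989), and DCTPP1, a nucleotide pyrophosphatase (0.987). They share the arrays and the normalization with AXL, 120 of the genes tested had an r of at least 0.9 with it, and the likeness is given as a description.

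EGFR, the receptor of EGF and TGF-alpha, had 4 probes, 3 of them detected on all arrays. The main probe, annotated to the transcript of the full-length receptor, read 10.02, 10.14 and 10.03 with the inhibitor and 10.13, 10.13 and 10.01 in the control. Inhibitor replicate 2 was the highest and control replicate 3 the lowest, and the groups overlapped. The difference was −0.026 ± 0.07, with a 95% interval from 0.882-fold to 1.09-fold. With 1 array left out it ran from −0.065 (without control replicate 3) to −0.0058 (without inhibitor replicate 1), and after median scaling it was −0.081. A probe annotated to a shorter, secreted form gave 7.73, 7.63 and 7.71 against 7.76, 7.73 and 7.67, a difference of −0.031 ± 0.07. The dimmer probes, annotated to shorter forms as well, gave −0.019 ± 0.11 and 0.047 ± 0.11, the latter detected on 3 of 6 arrays and within 1.04-fold of the floor. The interval of each of the 4 probes included 0.

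ERBB2, which has no known ligand of its own and pairs with the other receptors of the family, was near background with all 3 of its probes. The probe detected on all arrays, annotated to a transcript variant, read 4.68, 4.93 and 4.77 with the inhibitor and 5.00, 5.05 and 4.78 in the control, at raw signals of 49.3 to 60.1 units. The lowest values of the groups were 4.68 and 4.78, and the groups overlapped. It differed by −0.15 ± 0.09 (adjusted p = 0.736 in limma), and the value was −0.23 without control replicate 3, −0.092 without inhibitor replicate 1 and −0.062 with no background correction. A second probe, annotated to the main ERBB2 transcript and detected on 4 of 6 arrays, gave −0.059 ± 0.08. The third, annotated to the same transcript, was detected on 0 arrays, at 37.2 to 48.2 units, so it carries no difference.

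ERBB3, a neuregulin receptor whose own kinase activity is weak, was detected by 1 of its 3 probes. That probe is annotated to the short, secreted form of ERBB3, and read 4.79, 4.82 and 4.89 with the inhibitor and 4.79, 5.02 and 4.93 in the control. The groups overlapped, and the difference was −0.078 ± 0.08 (adjusted p = 0.842). Another probe annotated to the same short form and the only probe annotated to the full-length receptor were detected on 0 of 6 arrays, at 37.9 to 49.5 units for the latter. The full-length transcript was therefore not detectable with its probe on these arrays. Without control replicate 1 the difference was −0.14, and without control replicate 2 it was −0.026. Of the ligands of this family, HBEGF, NRG1 and EREG were detected on all arrays, EGF and BTC on 2 and 1 of 6, and TGFA on 0.

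MET, the receptor of hepatocyte growth factor, was measured by 1 probe, 3.86-fold to 5.30-fold above the floor. It read 7.52, 7.66 and 7.52 with the inhibitor and 7.45, 7.79 and 7.47 in the control. Control replicate 2 was the highest of the 6 values and the other control arrays were the lowest, so the inhibitor values lay inside the control range. The difference was −0.0023 ± 0.10, with a 95% interval from 0.855-fold to 1.17-fold. It turned to 0.11 without control replicate 2, to 0.021 without inhibitor replicate 1 and to 0.020 without inhibitor replicate 3. All 3 probes of HGF, its ligand, were detected on 0 arrays.

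FGFR1, a receptor of fibroblast growth factors, had the difference farthest from 0 of the 10 receptors and also the second widest interval. Its detected probe read 5.06, 5.46 and 5.27 with the inhibitor and 5.40, 5.58 and 5.37 in the control. Inhibitor replicate 1 was the lowest and inhibitor replicate 2 fell among the control values. The difference was −0.19 ± 0.11, or 0.878-fold, with an adjusted p of 0.721, and 8.65% of all genes tested lay as far from 0 or farther. The value was −0.088 without inhibitor replicate 1 and −0.28 without inhibitor replicate 2, and it was −0.092 with no background correction. The probe annotated to another FGFR1 transcript variant was detected on 0 arrays. Of the sister receptors, FGFR3 was detected on all arrays, within 1.23-fold of the floor, and FGFR2 and FGFR4 on 0.

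PDGFRA, one of a pair of receptors for platelet-derived growth factors, was the only receptor with a main probe higher under the inhibitor. The values were 8.96, 8.77 and 8.66 with the inhibitor and 8.65, 8.86 and 8.52 in the control. Inhibitor replicate 1 was the highest, the other values were interleaved, and the groups overlapped. The difference was 0.12 ± 0.11 (adjusted p = 0.825), and it was 0.033 without inhibitor replicate 1 and 0.21 without control replicate 2. A second probe annotated to the same PDGFRA transcript, 4.71-fold to 6.05-fold above the floor, read 7.85, 7.94 and 8.00 with the inhibitor and 8.01, 7.99 and 8.05 in the control. Inhibitor replicates 1 and 2 lay below all control values and inhibitor replicate 3 among them, and the difference was −0.085 ± 0.07. The direction of PDGFRA therefore depended on the probe.

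PDGFRB, the other receptor of the pair and a marker of fibroblasts and pericytes, had 1 probe, detected on 2 of 3 inhibitor arrays and 3 of 3 control arrays. Its raw signals were 50.4 to 56.8 units. The log2 values were 4.91, 4.78 and 4.55 with the inhibitor and 4.86, 4.91 and 5.01 in the control, with inhibitor replicate 3 the lowest and the groups overlapping at inhibitor replicate 1. The difference was −0.18 ± 0.10 (adjusted p = 0.716), or −0.083 without inhibitor replicate 3 and −0.27 without inhibitor replicate 1. It was −0.073 with no background correction. Among the PDGF genes, PDGFA, PDGFB, PDGFC and PDGFD were each detected on all 6 arrays, by different margins. PDGFB was within 1.13-fold of the floor and PDGFD within 1.42-fold. PDGFA lay 2.54-fold to 3.39-fold above it and PDGFC 13.3-fold to 18.2-fold.

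EPHA2, an ephrin-A receptor of epithelial and tumour cells, was the other receptor with groups lying apart. Its only probe read 8.84, 8.84 and 8.80 with the inhibitor and 8.92, 8.87 and 8.96 in the control. The highest inhibitor value and the lowest control value, 8.84 and 8.87, were closer than the control arrays were to one another by their SD of 0.044. The difference was −0.088 ± 0.06, or 0.941-fold, with a 95% interval of −0.23 to 0.052 and an adjusted p of 0.761. It kept its sign in all 19 alternatives, between −0.13 and −0.067, though several of these cannot change the difference of a gene with 1 probe. Replicate arrays differed by 0.036 (SD within groups) where the bead-to-bead standard error corresponded to 0.057. Of its ligands, EFNA4 was detected on all 6 arrays, EFNA1 and EFNA5 on 1 and 2, and EFNA2 and EFNA3 on 0.

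DDR2, the receptor of fibrillar collagens, had the difference nearest to 0 of the 10. Its main probe read 9.76, 9.76 and 9.68 with the inhibitor and 9.84, 9.67 and 9.69 in the control. Control replicate 1 was the highest, control replicate 2 the lowest, and the inhibitor values lay between. The difference was −0.0017 ± 0.07, with a 95% interval from 0.894-fold to 1.12-fold, and it turned to 0.053 without control replicate 1, to 0.027 without inhibitor replicate 3 and to 0.0050 in the authors' deposited value table. A second probe, annotated to another transcript variant and within 1.19-fold of the floor, gave −0.0061 ± 0.11. COL1A1 and COL5A1, whose products are in fibrillar collagens, were detected on all 6 arrays, and COL1A2 and COL3A1 on 0.

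**Figure D3:**
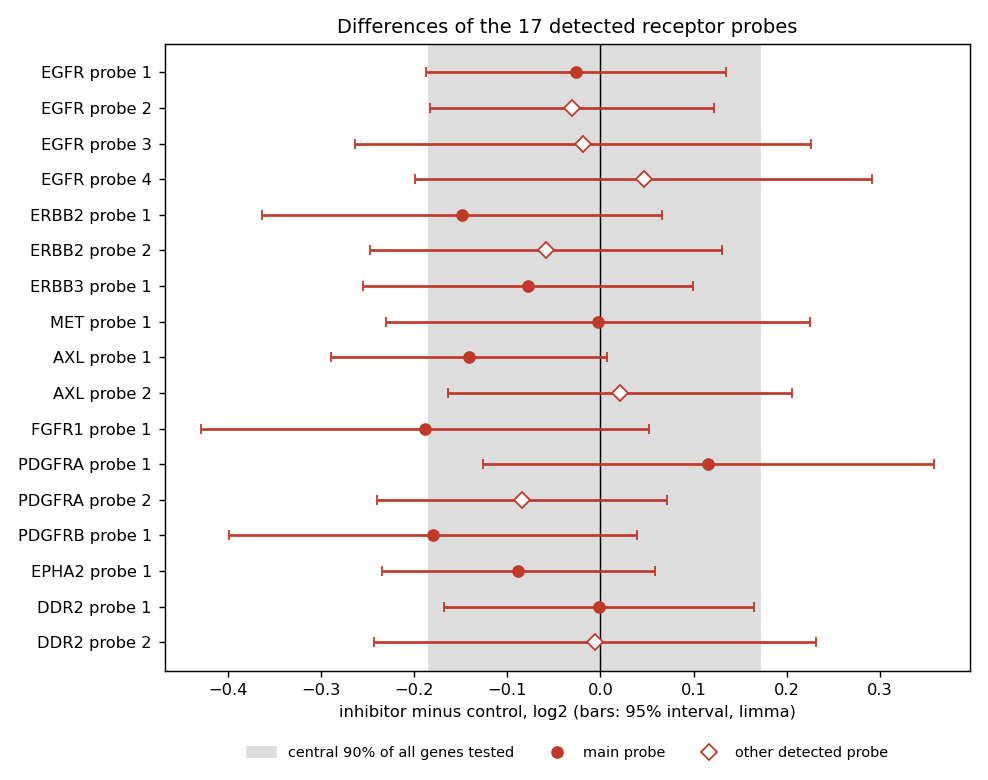
Inhibitor minus control in log2 units for the 17 detected receptor probes, with 95% intervals from limma fitted to all detected probes. Filled circles are main probes and open diamonds other probes, and the grey band holds the central 90% of all genes tested (−0.18 to 0.17). All 17 intervals include 0, and the probes of AXL and of PDGFRA fall on opposite sides of it.

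Among the 17 probes that entered a test, 14 lay below 0 and 3 above. Probes of 1 gene share its transcripts and are not separate evidence. Of the 7 further detected probes, which belong to EGFR, ERBB2, AXL, PDGFRA and DDR2, 4 pointed the way of the main probe and 3 the other way. The SD within groups exceeded the bead-to-bead standard error in 11 of the 17 probes. It did not in the other 6, which include the main probes of AXL and EPHA2.

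Of 39 other receptor tyrosine kinases on a list, 37 had a named probe, 16 were detected on all 6 arrays, 10 on 1 to 5 and 11 on 0. More than 2-fold above the floor on every array were MERTK, TYRO3, KIT, TIE1, EPHA4, EPHB1, EPHB4, MUSK and RYK, named as a complete set. Of 22 tested, 0 rose and 0 fell at an adjusted p under 0.05, 13 lay above and 9 below 0, and the median difference was 0.017. The 3 with the smallest p were MUSK, the agrin-responsive kinase of the neuromuscular junction (0.16 ± 0.08), RET, the receptor of GDNF-family ligands (0.19 ± 0.10), and EPHB3, an ephrin-B receptor (0.27 ± 0.15), with adjusted p-values of 0.692, 0.721 and 0.721. MUSK read 8.99, 8.81 and 8.76 with the inhibitor and 8.74, 8.73 and 8.62 in the control, with groups that did not overlap, and a difference of 0.090 without inhibitor replicate 1. RET was detected on 3 of 3 inhibitor arrays and 1 of 3 control arrays, within 1.13-fold of the floor, and its difference was 0.083 without control replicate 1, 0.31 without control replicate 3 and 0.080 with no background correction. Control replicate 3 of EPHB3 lay at 5.38, inside the inhibitor range of 5.07 to 5.56. The difference of EPHB3 was 0.17 without control replicate 1, 0.42 without inhibitor replicate 2, 0.41 without control replicate 3 and 0.13 with no background correction.

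Ligands of the receptors lay on both sides of 0. Of 30 listed, 29 had a named probe, 16 were tested, and 0 rose and 0 fell at an adjusted p under 0.05. Below 0 lay 9 and above 0 lay 7, with a median of −0.024. The smallest p belonged to FGF1, acidic fibroblast growth factor, which read 5.18, 5.14 and 5.18 with the inhibitor and 5.52, 5.59 and 5.34 in the control. All 3 inhibitor values lay below the control values, with a difference of −0.31 ± 0.08 and an adjusted p of 0.546. The FGF1 probe was within 1.53-fold of the floor, and its other detected probes gave −0.15 ± 0.13 and 0.015 ± 0.10. Its difference was −0.15 with no background correction, −0.17 with an offset of 50 and −0.18 in the authors' deposited value table. COL5A1, a fibrillar collagen chain, read 8.36, 8.39 and 8.22 against 8.59, 8.55 and 8.59, a difference of −0.25 ± 0.07 with an adjusted p of 0.546. The values of COL5A1 did not overlap between groups. PDGFA lay at −0.21 ± 0.10 (adjusted p = 0.679), with inhibitor replicate 1 at 7.08 inside the control range of 6.99 to 7.16, and a further PDGFA probe gave 0.038 ± 0.15. Without inhibitor replicate 1 it lay at −0.32. Without the detection filter the median of the ligands was 0.0059.

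Adaptors and effectors, which carry the signal from the receptors into the cell, were balanced, with 7 above and 7 below 0 among 14 tested of 23 listed, 15 of them with a named probe. None passed, in either direction, and the median difference was −0.0098. PTPN11, the phosphatase SHP2 that promotes signalling to RAS, read 11.25, 11.24 and 11.26 with the inhibitor and 10.93, 11.14 and 11.12 in the control (0.19 ± 0.07, adjusted p = 0.615). The groups of PTPN11 lay apart, with control replicate 1 the lowest, and the difference was 0.12 without that array and also after median scaling. GAB2, a docking protein, lay at −0.18 ± 0.07 and STAT3, a transcription factor activated by receptors, at −0.16 ± 0.07, both with an adjusted p of 0.624 and groups apart. GAB2 lay at −0.12 with no background correction. The 2 other STAT3 probes gave −0.10 and −0.048. Groups did not overlap in 5 of the 14, or 35.7%, against 13% of all genes tested, and in 1 of 22 other receptors, 3 of 16 ligands and 3 of 21 negative regulators. The 5 adaptors did not share a direction, with PTPN11, CRKL and PIK3R1 higher and GAB2 and STAT3 lower with the inhibitor. CRKL and PIK3R1 are named after their values were seen. A further PIK3R1 probe gave −0.24 ± 0.09 where the main one gave 0.15 ± 0.06.

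Negative regulators, which end or dampen receptor signals, were centred on 0, with 11 above and 10 below among 21 tested of 23 listed. Again 0 rose and 0 fell at the adjusted threshold, and the median was 0.00035. SOCS5, a suppressor of cytokine signalling that also acts on EGFR, read 7.50, 7.51 and 7.42 with the inhibitor and 7.32, 7.16 and 7.15 in the control. All inhibitor values of SOCS5 lay above all control values, with a difference of 0.27 ± 0.07 and an adjusted p of 0.546. Its other detected probe gave 0.025 ± 0.08. The ubiquitin ligase CBLB, which marks active receptors for breakdown, lay at −0.12 ± 0.06, and SPRY1, a Sprouty inhibitor of RAS signalling, at −0.13 ± 0.07, both with an adjusted p of 0.721. The further probes of SPRY1 gave −0.12 ± 0.10 and 0.20 ± 0.08. Over all 4 lists, 39 further detected probes of 30 genes pointed with the main probe in 23 cases and against it in 16.

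**Figure D4:**
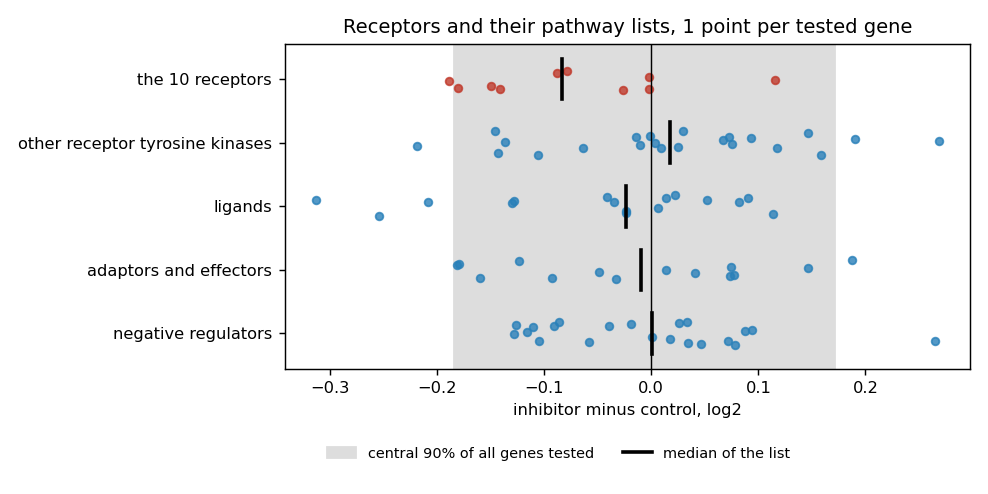
Inhibitor minus control in log2 units for each tested gene of the 10 receptors and the 4 pathway lists, 1 point per gene by its main probe, with the list median as a black bar and the central 90% of all genes tested in grey. The receptor median lies at −0.083 and the medians of the 4 lists between −0.024 and 0.017, and no point passed the adjusted test. Vertical scatter has no meaning.

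The receptors differed from one another in which arrays were high. Relative to each gene's own mean over the 6 arrays, 3, 6 and 1 of the 10 receptors were above it on inhibitor replicates 1, 2 and 3, and 7, 8 and 5 on control replicates 1, 2 and 3. The median deviations were −0.040, 0.030 and −0.070 log2 units for the inhibitor and 0.039, 0.10 and −0.018 for the control, so inhibitor replicate 2 lay above control replicate 3. In both groups replicate 2 was the highest and replicate 3 the lowest. Over the alternatives, 7 to 9 of the receptors lay below 0.

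**Figure D5:**
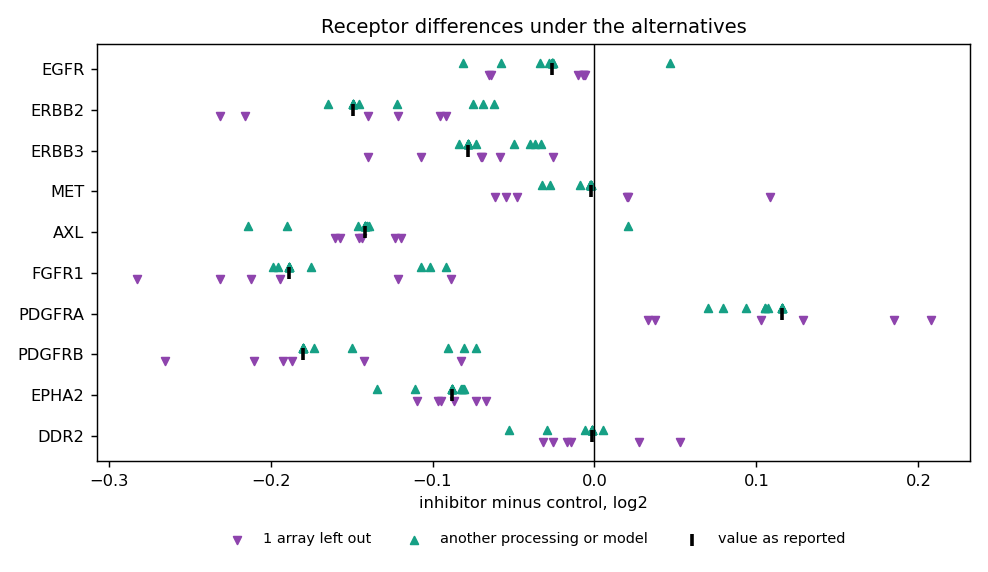
The difference of each receptor in log2 units as reported (black bar), with 1 array left out (triangles pointing down) and under another processing, probe choice or model (triangles pointing up). EPHA2, ERBB2, ERBB3, FGFR1 and PDGFRB stay below 0 and PDGFRA above it in every alternative that measured them. EGFR, MET, AXL and DDR2 cross 0 in at least 1. The second PDGFRA probe, at −0.085, is not among the points, and several alternatives repeat the reported difference by construction.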

How the data were processed

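Per the file headers, an array file deposited by the authors lists the mean intensity of every probe (linear scale) with the bead count and the spread among beads. It also lists a detection fraction, higher for brighter probes, and 1 minus this deposited fraction served as the detection p. The submitters' processing notes name BeadStudio. The intensities held no negative value and each array its own distribution, so they were treated as not normalized. The authors' deposited value table holds intensities put onto the distribution of the first inhibitor array. Bead addresses were paired with probe names by their ranks on the 6 arrays, unique for all 48803 probes. Probes were named by GEO's annotation of the platform, updated through Entrez identifiers (RefSeq, GRCh38.p14): 28098 probes had 1 gene, 13 several and 20692 none.

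Values were background corrected, quantile normalized (neqc, limma 3.58.1, R 4.3.3, offset 16) and taken to log2. Probes detected at p under 0.05 on at least 3 arrays entered (16387 named probes, 12087 genes by brightest probe). Groups were compared with lmFit and eBayes, 2-sided, with Benjamini-Hochberg adjustment over all genes. The fit was checked on simulated data with known changes. That check does not show that changes as small as those of the receptors would be found. No slide or scan date was used, so batches were not tested. Members, lists and alternatives were chosen with earlier results of these data known. Beside all members, the rule named the 3 genes with the smallest p of each list and the 3 most like the member with the smallest p; others are named after their values were seen, as is the 2-fold margin over the floor. The replicate numbers are not stated to mark a shared day or batch, so the replicate block was an alternative. These numbers did not pair arrays over all genes tested.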

Additional observations from a re-analysis of the deposited data

How the results depend on the processing

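Over 19 alternatives, 0 of 10 receptors passed the adjusted test in any, and 181 of 189 receptor values kept their direction. The settings that changed only the detection filter, the probes tested together, the block or the variance model left each main-probe difference as it was. Their values are in the 189 but say nothing on direction. With the probe of largest spread in place of the brightest, EGFR turned to 0.047, AXL to 0.020 and PDGFA to 0.038, and DDR2 turned to 0.0050 in the deposited value table. With 1 array left out, MET ran from −0.062 to 0.11 and DDR2 from −0.032 to 0.053. The count of all genes past the test was 0, but 5 when arrays were not normalized to one another and 7 with median scaling. In these settings 318 and 412 genes had an unadjusted p under 0.05 in limma, in place of 925. All receptors and named list genes then shared 1 SE, 0.137 without normalization and 0.130 with median scaling. The counts in these settings thus followed the size of the difference and not the replicate spread of each gene. The receptor median was −0.031 over every probe on its own. The ligand median was −0.063 after median scaling, 0.0059 with no detection filter and −0.059 to −0.010 with 1 array left out. That of the adaptors was −0.063 with the probe of largest spread and −0.061 to 0.024 with 1 array left out. That of the negative regulators was −0.046 with median scaling, −0.022 with no normalization between arrays, −0.020 with the probe of largest spread and −0.024 to 0.0091 with 1 array left out. The median of all genes was −0.037 after median scaling. The number of receptors at an unadjusted p under 0.05 was 0 to 2 over the alternatives, and above 0 in 11 of the 19. The cause of the moves in the medians and in the receptor counts was not tested. The replicate block gave 0 genes past the test, as the fit without it did, and 880 at an unadjusted p under 0.05. Over all genes tested, same-numbered arrays had deviations correlated at 0.020, 0.0032 and −0.0060, so the numbers did not pair the arrays genome-wide. For the receptors the block moved the SE both ways. It fell for FGFR1 (0.105 to 0.078), MET (0.099 to 0.075), PDGFRA (0.106 to 0.091), ERBB2 and ERBB3. It rose or stayed close for AXL (0.063 to 0.069), EPHA2 (0.062 to 0.069), PDGFRB (0.095 to 0.103), EGFR and DDR2. Signals near background limit ERBB2, ERBB3, FGFR1 and PDGFRB.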
